A study of Populus trichocarpa with 28 samples.

Results

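The response of 9 abscisic acid genes to water deficit was followed in Populus trichocarpa, the black cottonwood. Abscisic acid is the hormone that plants accumulate when water runs short. The genes were listed by identifier, under the names these loci carry in poplar, and made up 9 of the 41335 genes in the files. The set comprised the synthesis genes NCED3a (Potri.001G393800) and NCED3b (Potri.011G112400), and the transcription factor genes AREB1-2 (Potri.002G125400), AREB1-3 (Potri.009G101200) and AREB1-4 (Potri.014G028200). It also held the drought NAC genes NAC006 (Potri.002G081000), NAC007 (Potri.007G099400), NAC118 (Potri.011G123300) and NAC120 (Potri.001G404100). All 9 were present in every gene file, and 7 had an intron entry of their own. The NCED3 genes had none.

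Plants were raised in a greenhouse from rooted stem cuttings and were all watered to field capacity for 2 months. Water was then withheld from the drought plants, which stayed at 40% of field capacity for 24 hours (short term) or 25 days (long term), while watering of the control plants continued. The short-term drought and control groups were apex and mature leaves, sequenced as stranded total RNA after removal of ribosomal RNA. The long-term drought and control groups were apex, root, and young and mature leaves, all as stranded mRNA libraries, and root again as total RNA. That gave 14 groups of 2 libraries and 7 comparisons of drought with control. The titles carry numbers, 35 and 69 for short-term drought, 19 and 49 for short-term control, 64 and 68 for long-term drought, and 63 and 70 for long-term control, and each number recurs across tissues. The labels do not say whether they mark separate plants, so p-values may measure only the spread between libraries. No genotype or age is labelled, and no group carries a transgene or other agent in the labels.

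Abscisic acid is made from carotenoids. NCED enzymes (9-cis-epoxycarotenoid dioxygenases) cut the carotenoid precursor in the first committed step, and NCED3 is the member known in Arabidopsis for drought-induced synthesis. AREB1 proteins are bZIP transcription factors that are activated by abscisic acid signalling and bind abscisic acid response elements in promoters. NAC proteins are a plant family of transcription factors, and in poplar several drought NAC genes, among them NAC006, NAC007 and NAC120, have been described as targets of AREB1.

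Levels are given per library as sense CPM (counts per 1000000 of the normalised sense library size), and fold changes are drought over control on the log2 scale with their standard error (SE). A gene was called where the Benjamini-Hochberg adjusted p of edgeR's quasi-likelihood test, fitted to all genes of the table, was under 0.05. A library held 20249489 to 67062224 sense reads over genes, 382726 to 2686433 antisense reads and 251926 to 5949444 sense reads over introns. Sense counts of single members per library lay between 3 and 42762. The tissue labels were checked with loci named from general knowledge, since the files hold no names. The meristem genes ARK1 (Potri.011G011100) and ARK2 (Potri.002G113300) had at most 0.0568 CPM in any leaf library, while in the apex libraries ARK1 had 2.3 to 5.07 CPM. ARK2 was also read in root, at 37.1 to 92 CPM. The Rubisco small subunit locus Potri.004G100000 had 7762 to 27109 CPM in leaves and at most 4.84 in root. All values come from bulk tissue, in which fewer cells of a type and less RNA per cell cannot be told apart. The genes of a pair (NCED3a and NCED3b, AREB1-2 and AREB1-4, NAC006 and NAC007, NAC118 and NAC120) are related, and reads that fit both could have been split or dropped by the authors' counting.

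After 24 hours of drought the apex had more sense RNA from 8 of the 9 genes, and NCED3a was the exception. NCED3b, all 3 AREB1 genes and all 4 NAC genes rose, by 2.12 to 5.55 on the log2 scale. Across the apex 62.3% of 27027 tested genes were called and 30.0% were called upward, so a call by itself was common there. The members' median log2 fold change was 3.18, beside -0.0024 over all tested genes. In all 8 genes both drought libraries stood above both control libraries, which held upward for 42.6% of genes with at least 15 counts.

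The NCED3 genes parted in this tissue. NCED3b had 105 and 219 CPM in drought apex, against 8.19 and 0.228 CPM in control apex. Both drought libraries were far above the controls, and the controls, numbered 19 and 49, differed widely from each other. The fold change was called (log2 fold change 5.15, SE 1.44, adjusted p = 0.0337) and lay above that of 99.3% of tested genes. The call was lost when drought library 35 (adjusted p = 0.129) or 69 (adjusted p = 0.23) was left out, and when low counts were kept (adjusted p = 0.182). NCED3a had 5.82 and 7.11 CPM in drought apex, against 8.06 and 6.9 CPM in control apex, and these ranges overlapped (log2 fold change -0.27, SE 0.19, adjusted p = 0.248).

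The 3 AREB1 genes, whose products carry the hormone signal to promoters, rose together in the apex. AREB1-4 had 196 and 247 CPM in drought apex, against 22.2 and 15.4 CPM in control apex (log2 fold change 3.50, SE 0.24, adjusted p = 9.58e-05). It had the smallest adjusted p of the set in this comparison. AREB1-3 had 105 and 139 CPM in drought apex, against 16.6 and 9 CPM in control apex (log2 fold change 3.18, SE 0.33, adjusted p = 0.000535). AREB1-2 had 93.5 and 170.4 CPM in drought apex, against 33.4 and 24.9 CPM in control apex (log2 fold change 2.12, SE 0.32, adjusted p = 0.002). In each of these genes the drought and control libraries were apart, and drought library 69 was higher than drought library 35. The calls of the AREB1 genes held whichever of the 4 libraries was left out.

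The 4 NAC genes rose by 2.97 to 5.55 on the log2 scale. NAC120 had 249 and 287 CPM in drought apex, against 8.75 and 2.03 CPM in control apex (log2 fold change 5.55, SE 0.76, adjusted p = 0.00298), above 99.5% of tested genes. NAC118 had 334 and 541 CPM in drought apex, against 26.1 and 3.4 CPM in control apex (log2 fold change 4.81, SE 1.09, adjusted p = 0.0178). In both genes control library 19 was several-fold above control library 49, which widened the SE. NAC006 had 726 and 947 CPM in drought apex, against 129 and 75.9 CPM in control apex (log2 fold change 2.97, SE 0.31, adjusted p = 0.000389). NAC007 had 46.9 and 41 CPM in drought apex, against 6.51 and 3.33 CPM in control apex (log2 fold change 3.08, SE 0.32, adjusted p = 0.00048). Without drought library 69 the calls of NAC118 and NAC120 were lost (log2 fold changes 4.42 and 5.43). Without drought library 35 that of NAC118 was lost (adjusted p = 0.105), as it was without the low-count filter (adjusted p = 0.128).

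Of the marker loci, ARK2 and the Rubisco loci differed between drought and control in the 24-hour apex as well, while ARK1 overlapped. The part of the marker loci in these changes was not tested. Potri.004G100000 (Rubisco small subunit) had 428 and 181 CPM in drought apex, against 2332 and 2097 CPM in control apex. The other Rubisco locus, Potri.017G114600, had 2095 and 1011 CPM in drought apex and 8871 and 7483 CPM in control apex. ARK2 had 2.81 and 4.45 CPM in drought apex and 11.2 and 9.71 CPM in control apex, and ARK1 had 2.43 and 3.79 CPM in drought apex and 2.67 and 2.3 CPM in control apex. Drought apex can also be set beside control mature leaves of the same experiment, but no share over all genes was counted, so only levels are given. NCED3a had 5.82 and 7.11 CPM in drought apex, while control mature leaves had 10.7 and 15.8 CPM. NCED3b had 105 and 219 CPM in drought apex, while control mature leaves had 5.25 and 2.58 CPM.

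**Figure D1:**
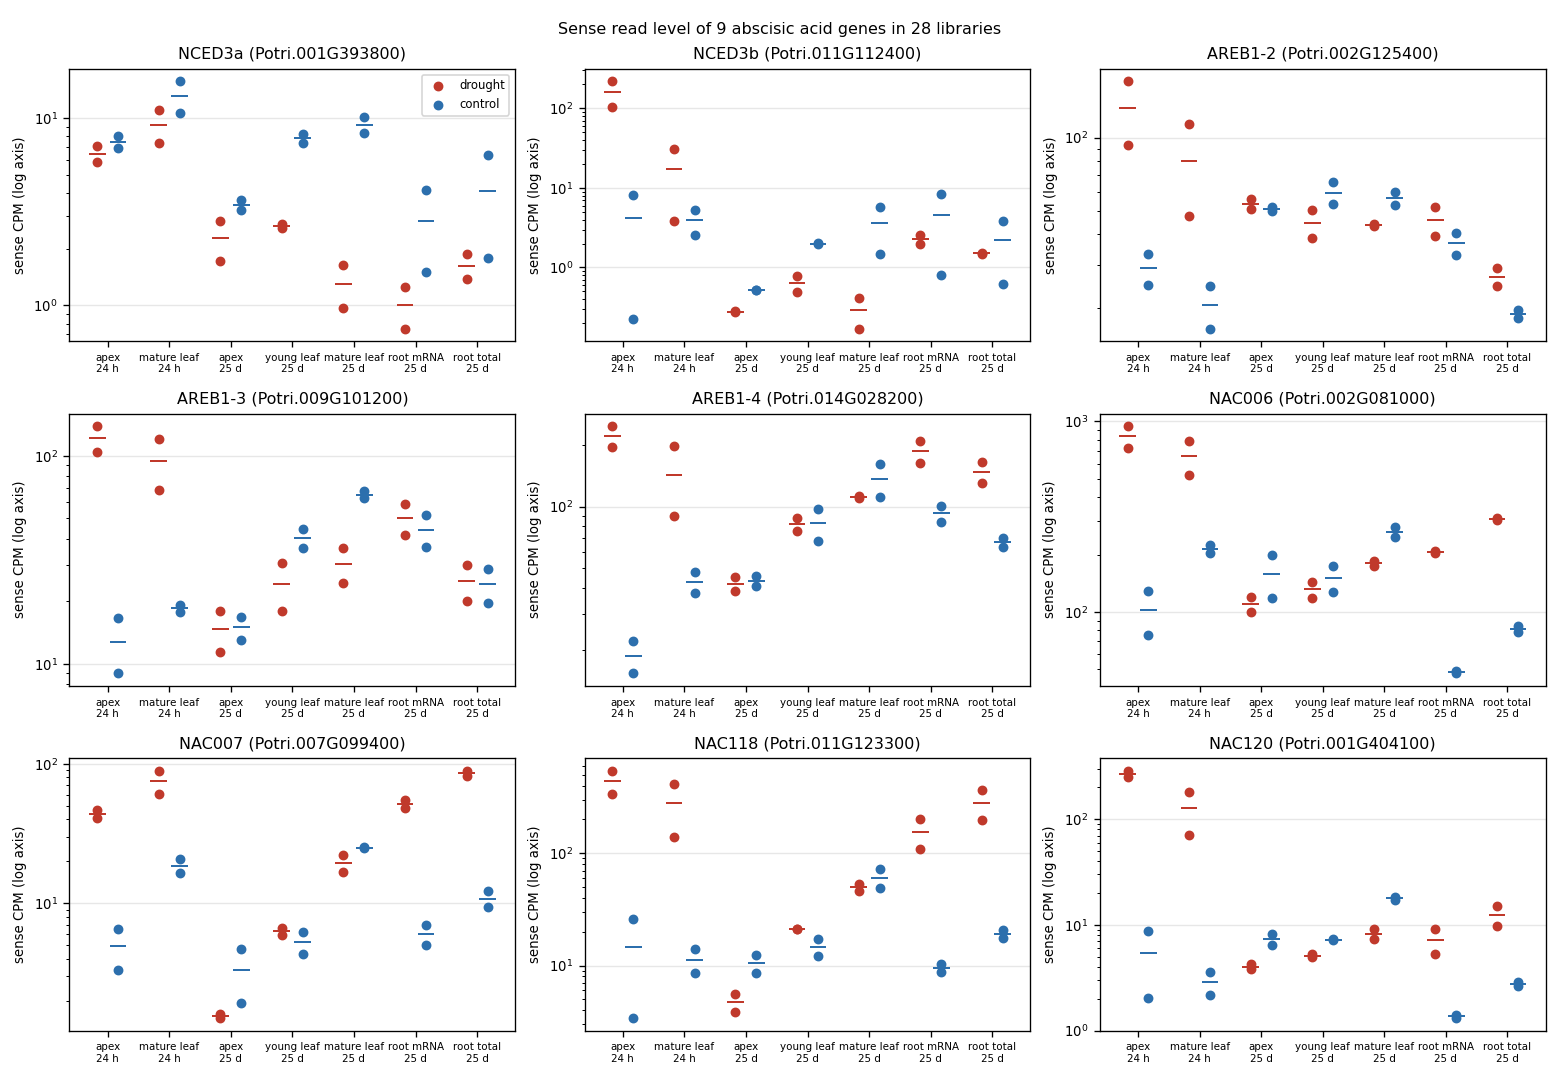
Sense CPM of the 9 genes on a log axis, with 1 point per library and a line at the mean of each group, drought in red to the left of control in blue for each tissue and duration. For NCED3b the gap is widest in 24-hour apex (105 and 219 CPM under drought, against 8.19 and 0.228 CPM in control). NAC118 and NAC120 have wide gaps in both 24-hour tissues (log2 fold changes 4.81 in apex and 4.67 in mature leaves for NAC118, 5.55 and 5.51 for NAC120). The response was not called different between the 24-hour tissues for any of these genes. NCED3a lies lower under drought in 25-day young and mature leaves.

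In mature leaves 24 hours of drought raised 6 of the 9 genes. AREB1-3, AREB1-4 and the 4 NAC genes rose, by 1.66 to 5.51 on the log2 scale, so 6 of 9 members were called upward where 8.73% of 25054 tested genes were. The members' median log2 fold change was 2.04, beside -0.0001 over all tested genes. NAC120 had 71.2 and 182 CPM in drought mature leaves, against 3.57 and 2.17 CPM in control mature leaves (log2 fold change 5.51, SE 0.65, adjusted p = 0.0127). NAC118 had 138 and 416 CPM in drought mature leaves, against 13.9 and 8.51 CPM in control mature leaves (log2 fold change 4.67, SE 0.72, adjusted p = 0.0239). In both NAC genes drought library 69 was well above drought library 35, and both were above the controls.

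NAC007 had 89 and 60.8 CPM in drought mature leaves, against 20.6 and 16.5 CPM in control mature leaves (log2 fold change 2.04, SE 0.23, adjusted p = 0.0044), and here library 35 was the higher of the drought libraries. NAC006 had 526 and 787 CPM in drought mature leaves, against 224 and 203 CPM in control mature leaves (log2 fold change 1.66, SE 0.24, adjusted p = 0.0089). AREB1-3 had 68.2 and 121 CPM in drought mature leaves, against 19.2 and 17.8 CPM in control mature leaves (log2 fold change 2.39, SE 0.30, adjusted p = 0.00741). These 3 genes did not overlap between drought and control. In 7 members, the 6 called and AREB1-2, both drought libraries were above both controls, as in 30.7% of genes with at least 15 counts. AREB1-4 had 89.8 and 197 CPM in drought mature leaves, against 38 and 47.8 CPM in control mature leaves (log2 fold change 1.78, SE 0.41, adjusted p = 0.0413), and its call was lost without the low-count filter (adjusted p = 0.0669), as was that of NAC118 (adjusted p = 0.0807). AREB1-2 had 47.5 and 113 CPM in drought mature leaves, against 16.4 and 24.6 CPM in control mature leaves and was not called (log2 fold change 2.01, SE 0.49, adjusted p = 0.0553). DESeq2 called it (adjusted p = 3.28e-05), as did a dispersion shared with other groups (adjusted p = 0.0302). All 6 calls were lost when control library 19 or control library 49 was left out, with 0 members called by edgeR in either case and adjusted p from 0.0899 to 0.259 for the 6 genes. Calls over all genes then fell to 0.435% without library 19 and 0.357% without library 49, against 17.9% with all 4 libraries. The fold changes stayed near their size, with log2 values for NAC120 of 5.87 and 5.18, and for NAC118 of 5.04 and 4.35. Without drought library 35 the members' median log2 fold change was 2.52, and without drought library 69 it was 1.32, with NCED3a at -0.82. The Rubisco locus Potri.004G100000 had 11125 and 7762 CPM in drought leaves, against 23404 and 27109 CPM in control leaves, and its part in these changes was not tested.

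The NCED3 genes were not called in these leaves. NCED3b had 3.83 and 30.9 CPM in drought mature leaves, against 5.25 and 2.58 CPM in control mature leaves, and library 69 alone stood out (log2 fold change 2.20, SE 1.12, adjusted p = 0.248). Without library 69 its log2 fold change was -0.01 (adjusted p = 0.996), and without library 35 it was 3.05 and was called, with library 69 the 1 drought library left. NCED3a had 7.39 and 11.1 CPM in drought mature leaves, against 10.7 and 15.8 CPM in control mature leaves (log2 fold change -0.48, SE 0.29, adjusted p = 0.279), and drought and control overlapped.

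Whether the 24-hour response of the apex differed from that of mature leaves was tested as a tissue by drought term. It was called in 28.3% of 27796 genes and in 2 of 9 members, so members were called no more often than genes at large. AREB1-4 rose more in the apex (difference 1.70, SE 0.53, adjusted p = 0.0498), and so did NAC006 (difference 1.29, SE 0.41, adjusted p = 0.0471). Neither was called when number 19 or 49 was left out in both tissues (adjusted p for AREB1-4 = 0.13 and 0.303, and for NAC006 = 0.0846 and 0.223). NAC006 was also lost without number 35 (adjusted p = 0.0947), and AREB1-4 without the low-count filter (adjusted p = 0.0906).

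After 25 days of drought no member was called in the apex (0 by edgeR, with 3 members at an unadjusted p under 0.05, and 1 by DESeq2), where 0.164% of 25068 tested genes were called. The members' median log2 fold change was -0.60, beside 0.01 over all tested genes. NAC118 had 5.62 and 3.88 CPM in drought apex, against 12.3 and 8.58 CPM in control apex (log2 fold change -1.15, SE 0.26, adjusted p = 0.173), and DESeq2 called it (adjusted p = 0.0197). NAC120 had 4.27 and 3.79 CPM in drought apex, against 8.13 and 6.48 CPM in control apex (log2 fold change -0.88, SE 0.21, adjusted p = 0.191). In 5 genes, both NCED3 genes, NAC007, NAC118 and NAC120, both drought libraries lay below both controls, as in 20.3% of genes with at least 15 counts. AREB1-2 had 55.8 and 50.9 CPM in drought apex, against 49.7 and 52 CPM in control apex (log2 fold change 0.05, SE 0.13, adjusted p = 0.935), with overlapping libraries. Without control library 70, NAC118 and NAC007 were called downward (adjusted p = 0.0444 and 0.0416).

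In young leaves after 25 days both NCED3 genes fell and no other member was called. That is 2 of 9 members called downward, where 6.82% of 24778 tested genes were. NCED3a had 2.71 and 2.59 CPM in drought young leaves, against 7.39 and 8.28 CPM in control young leaves (log2 fold change -1.57, SE 0.22, adjusted p = 0.00533). NCED3b had 0.498 and 0.791 CPM in drought young leaves, against 2.02 and 1.98 CPM in control young leaves (log2 fold change -1.61, SE 0.37, adjusted p = 0.0306). In both genes the groups did not overlap. In all, 5 members lay lower in both drought libraries than in both controls, as did 29.1% of genes with at least 15 counts. The call of NCED3a held under every alternative run, and that of NCED3b was lost by DESeq2 (adjusted p = 0.073), under a dispersion shared with other groups (adjusted p = 0.346) and when control library 63, control library 70 or drought library 64 was dropped (adjusted p = 0.0843, 0.0761 and 0.151). AREB1-3 had 30.5 and 18.1 CPM in drought young leaves, against 35.9 and 44.6 CPM in control young leaves (log2 fold change -0.74, SE 0.26, adjusted p = 0.126), and it was called without drought library 64 (adjusted p = 0.00603). NAC118 had 21.1 and 21 CPM in drought young leaves, against 12.2 and 17.2 CPM in control young leaves (log2 fold change 0.51, SE 0.19, adjusted p = 0.127), the 1 member with both drought libraries above both controls, as in 27.8% of genes, and it was called without control library 70 (adjusted p = 0.0368).

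In mature leaves after 25 days NCED3a and NAC120 fell, 2 of 9 members where 4.07% of 23503 tested genes were called downward. NCED3a had 0.966 and 1.65 CPM in drought mature leaves, against 10.2 and 8.28 CPM in control mature leaves (log2 fold change -2.76, SE 0.31, adjusted p = 0.0136), and its call held under every alternative run. NAC120 had 9.15 and 7.28 CPM in drought mature leaves, against 18.5 and 17.3 CPM in control mature leaves (log2 fold change -1.09, SE 0.20, adjusted p = 0.0393), and its call was lost when control library 63 or drought library 68 was dropped (adjusted p = 0.0769 and 0.167). Both genes had drought libraries below their controls. NCED3b had 0.17 and 0.411 CPM in drought mature leaves, against 5.82 and 1.5 CPM in control mature leaves (log2 fold change -3.55, SE 0.84, adjusted p = 0.0735). Its control libraries were far apart, and it was called by DESeq2 (adjusted p = 0.000618) and without control library 70 (adjusted p = 0.00329). AREB1-3 had 36.1 and 24.4 CPM in drought mature leaves, against 62.5 and 67.5 CPM in control mature leaves (log2 fold change -1.06, SE 0.23, adjusted p = 0.0546). It was called by DESeq2 (adjusted p = 0.00379), when low counts were kept (adjusted p = 0.0254), when drought library 64 was dropped (adjusted p = 0.025) and under a dispersion shared with other groups (adjusted p = 0.034). In 7 of the 9 genes, all but AREB1-4 and NAC118, both drought libraries were below both controls, as in 31.1% of genes with at least 15 counts.

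**Figure D2:**
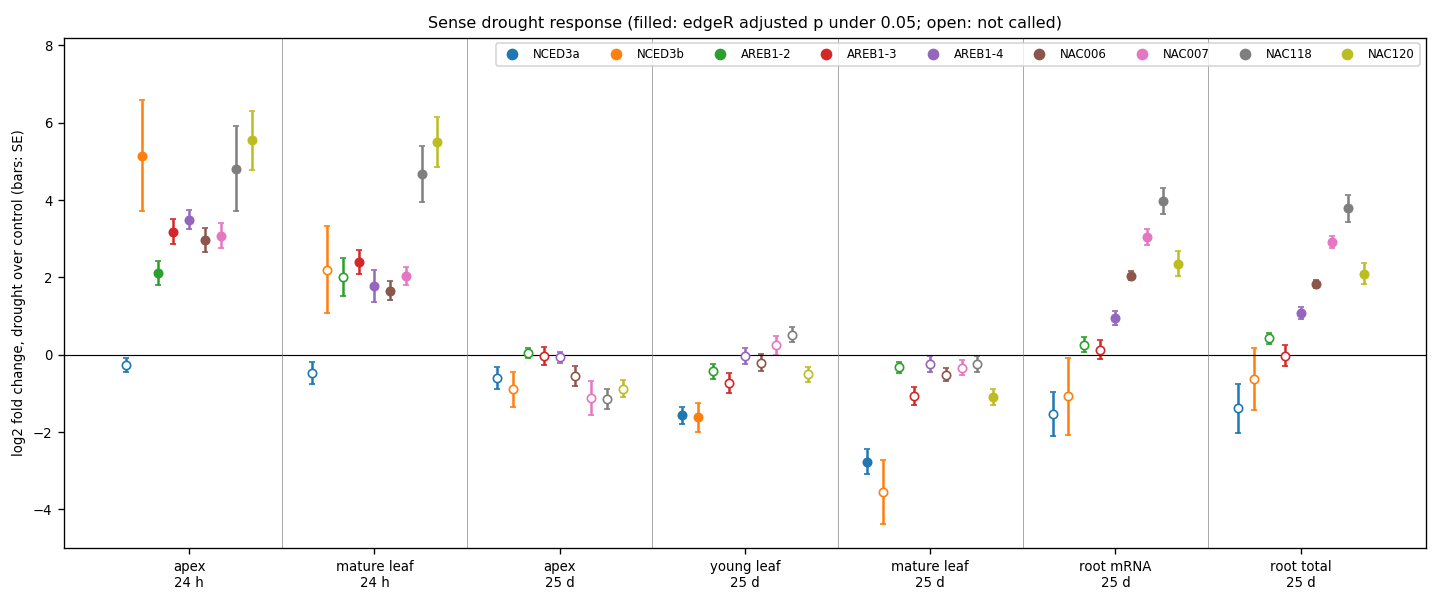
Log2 fold change of sense counts, drought over control, with SE bars for the 9 genes in the 7 comparisons. Filled points were called by edgeR at an adjusted p under 0.05 and open points were not. Called points lie above 0 at 24 hours and in root, and below 0 in the young and mature leaves of the 25-day experiment. The 24-hour libraries were total RNA and the 25-day shoot libraries mRNA, so duration and library type cannot be told apart in shoot tissues.

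In root after 25 days AREB1-4 and the 4 NAC genes rose, as mRNA and as total RNA. Of the 9 members, 5 were called upward in root mRNA, where 12.7% of 27499 tested genes were, and the same 5 in root total RNA, where 12.1% of 27628 were. The members' median log2 fold change was 0.95 in root mRNA and 1.07 in root total RNA, beside -0.03 and -0.03 over all tested genes. The mRNA and total RNA libraries of root share title numbers, so their values are given side by side and are not independent. Both drought libraries were above both controls in 5 members as mRNA, against a background of 35.8% of genes, and in 6 as total RNA, against 37.1%. The meristem marker ARK2 had 54.3 and 50.8 CPM in drought root mRNA, against 91.7 and 92 CPM in control root mRNA, and its part in these changes was not tested.

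NAC118 had 109.6 and 201 CPM in drought root mRNA, against 8.76 and 10.2 CPM in control root mRNA (log2 fold change 3.97, SE 0.34, adjusted p = 0.00684), above 99.7% of tested genes. In root total RNA it had 196 and 363 CPM in drought root, against 17.4 and 20.9 CPM in control root (log2 fold change 3.78, SE 0.34, adjusted p = 0.00728). Drought library 68 was the higher one in both library types. NAC007 had 54.9 and 48.5 CPM in drought root mRNA, against 7.01 and 5.04 CPM in control root mRNA (log2 fold change 3.05, SE 0.20, adjusted p = 0.00628), and in total RNA 88.9 and 82.1 CPM in drought root, against 12.2 and 9.33 CPM in control root (log2 fold change 2.92, SE 0.16, adjusted p = 0.0058). NAC006 had 209.6 and 203 CPM in drought root mRNA, against 48.8 and 47.5 CPM in control root mRNA (log2 fold change 2.04, SE 0.12, adjusted p = 0.00628), and in total RNA 311 and 303 CPM in drought root, against 84.6 and 78.9 CPM in control root (log2 fold change 1.83, SE 0.11, adjusted p = 0.0058). The libraries within each group of NAC006 and NAC007 lay close together, and the calls of NAC006, NAC007 and NAC118 held in both library types whichever library was left out.

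NAC120 had 9.18 and 5.26 CPM in drought root mRNA, against 1.42 and 1.31 CPM in control root mRNA (log2 fold change 2.35, SE 0.33, adjusted p = 0.0128), and in total RNA 15.1 and 9.7 CPM in drought root, against 2.86 and 2.64 CPM in control root (log2 fold change 2.1, SE 0.26, adjusted p = 0.0111). AREB1-4 had 209.5 and 162 CPM in drought root mRNA, against 101 and 84.3 CPM in control root mRNA (log2 fold change 0.95, SE 0.19, adjusted p = 0.0241), and in total RNA 165 and 130.0 CPM in drought root, against 69.9 and 63.7 CPM in control root (log2 fold change 1.07, SE 0.16, adjusted p = 0.0143). Drought and control did not overlap in either gene. In mRNA both calls were lost without control library 63 (adjusted p = 0.06 for NAC120 and 0.101 for AREB1-4) or without control library 70 (adjusted p = 0.0726 and 0.156). In total RNA that of AREB1-4 was lost without control library 63 or 70 (adjusted p = 0.0587 and 0.0796), and that of NAC120 without control library 70 (adjusted p = 0.0549).

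The synthesis genes and the remaining AREB1 genes were not called in root. NCED3a had 1.26 and 0.752 CPM in drought root mRNA, against 4.14 and 1.51 CPM in control root mRNA (log2 fold change -1.54, SE 0.56, adjusted p = 0.103), and in total RNA 1.88 and 1.38 CPM in drought root, against 6.37 and 1.79 CPM in control root (log2 fold change -1.39, SE 0.62, adjusted p = 0.162). It was called downward in mRNA by DESeq2 (adjusted p = 0.0345) and under a dispersion shared with other groups (adjusted p = 0.0149), and in total RNA without control library 70 (adjusted p = 0.0365). NCED3b had 2.54 and 1.97 CPM in drought root mRNA, against 8.45 and 0.802 CPM in control root mRNA (log2 fold change -1.08, SE 1.0, adjusted p = 0.457), where control library 63 was above and control library 70 below both drought libraries. Its log2 fold change was 1.42 without control library 63 and -1.94 without control library 70 (adjusted p = 0.117 and 0.0447). AREB1-3 had 58.5 and 41.7 CPM in drought root mRNA, against 51.9 and 36.4 CPM in control root mRNA (log2 fold change 0.13, SE 0.25, adjusted p = 0.718), and AREB1-2 had 52 and 39.3 CPM in drought root mRNA, against 40.6 and 32.9 CPM in control root mRNA (log2 fold change 0.26, SE 0.19, adjusted p = 0.351), with overlapping libraries in both genes. In total RNA AREB1-2 had 29 and 24.4 CPM in drought root, against 19.6 and 18.2 CPM in control root, without overlap, and was not called (log2 fold change 0.42, SE 0.14, adjusted p = 0.0813).

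The 4 NAC genes responded differently in root and in mature leaves after 25 days. The tissue by drought term, root mRNA minus mature leaves, was called in 7.44% of 28591 genes and in 4 of 9 members, all NAC genes and all higher in root. For NAC118 the log2 fold changes differed by 4.24 (SE 0.43, adjusted p = 0.00588). NAC120 (difference 3.46, SE 0.40, adjusted p = 0.00696), NAC007 (difference 3.40, SE 0.30, adjusted p = 0.00474) and NAC006 (difference 2.58, SE 0.21, adjusted p = 0.00372) followed. All 4 calls were lost without number 68, where edgeR called 0 members and 0 of 29077 genes (adjusted p from 0.064 for NAC120 to 0.0775 for NAC006). The differences there were 3.83 for NAC118, 3.64 for NAC120, 3.28 for NAC007 and 2.56 for NAC006. Those of NAC118 and NAC120 were lost without number 70 (adjusted p = 0.0532 and 0.0617), and that of NAC120 without number 63 (adjusted p = 0.0632).

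Between the shoot tissues of the 25-day experiment few responses differed. The NCED3a response was less negative in the apex than in mature leaves (difference 2.16, SE 0.45, adjusted p = 0.0354), the 1 member called where 3.61% of 26319 genes were. That call was lost without number 63, 70 or 64 (adjusted p = 0.221, 0.0743 and 0.29). Between young and mature leaves 0 members were called by edgeR, with 3 at an unadjusted p under 0.05, where 1.71% of 25434 genes were called. Libraries of the same number deviated together in young and mature leaves, and with that number as a block NAC118 was called (difference 0.81, adjusted p = 0.0204, against 0.82 and adjusted p = 0.267 without the block). With the block 7.53% of all genes were called. The drought response in root total RNA minus that in root mRNA was called in 0 members and 0 (0.0%) of 28567 genes by edgeR, with 0 members at an unadjusted p under 0.05. Same-numbered root libraries also deviated together, and with the number as a block 25 genes (0.0875%) and 0 members were called by edgeR, with 3 members at an unadjusted p under 0.05.

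Among well-watered plants of the 25-day experiment, mature leaves had the highest mean level of 7 of the 9 genes. Of the members, 7 were lower in apex than in mature leaves, 6 lower in young leaves and 7 lower in root, where 26.6%, 10.7% and 28.1% of 28085 genes were. NAC118 averaged 10.4 ± 2.63 CPM in apex, 14.7 ± 3.48 in young leaves, 9.5 ± 1.05 in root mRNA and 60.5 ± 16.5 in mature leaves (mean ± SD, n = 2 each). Apex (log2 difference -2.54, adjusted p = 7.34e-05), young leaves (log2 difference -2.05, adjusted p = 0.000918) and root (log2 difference -2.68, adjusted p = 3.40e-05) were each below mature leaves. NAC120 averaged 1.36 ± 0.075 CPM in root, 7.25 ± 0.0983 in young leaves and 7.31 ± 1.16 in apex, against 17.9 ± 0.856 in mature leaves, with root the lowest (log2 difference -3.72, adjusted p = 6.32e-07). Apex and young leaves were not called different for NAC120 (log2 difference 0.01, adjusted p = 0.971).

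NAC007 averaged 3.33 ± 1.97 CPM in apex, 5.27 ± 1.34 in young leaves and 6.03 ± 1.4 in root, against 25.1 ± 0.516 in mature leaves. The first 3 were each lower than mature leaves, and apex and young leaves were not called different (log2 difference -0.67, adjusted p = 0.211). NAC006 averaged 48.2 ± 0.912 CPM in root, 151 ± 32.8 in young leaves and 158 ± 56.2 in apex, against 264 ± 21.9 in mature leaves, and root was the lowest (log2 difference -2.47, adjusted p = 5.95e-05). The calls of NAC006 for apex and for young leaves were lost without number 70 (adjusted p = 0.316 and 0.234).

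The AREB1 genes differed in their order. AREB1-3 averaged 15 ± 2.71 CPM in apex, 40.2 ± 6.12 in young leaves and 44.1 ± 11 in root, against 65 ± 3.56 in mature leaves, with apex below young leaves too (log2 difference -1.42, adjusted p = 0.00117). It was 1 of 2 members lower in apex than in young leaves, where 18.8% of genes were, and AREB1-4 was the other (log2 difference -0.93, adjusted p = 0.0139). Without number 70 the difference of AREB1-4 was -0.57 and was not called. With title number as a block 3 members were called lower, NCED3a among them, where 42.4% of genes were called in either direction. AREB1-4 averaged 43.5 ± 3.25 CPM in apex, 82.8 ± 21 in young leaves and 92.6 ± 11.8 in root, against 136 ± 34.4 in mature leaves, and root was not called different from mature leaves (log2 difference -0.57, adjusted p = 0.0608). AREB1-2 averaged 50.9 ± 1.67 CPM in apex, 59.3 ± 8.61 in young leaves and 56.3 ± 5 in mature leaves, 3 levels not called different from each other, and 36.8 ± 5.45 in root, which was lower than mature leaves (log2 difference -0.63, adjusted p = 0.0099). That call was lost without number 70 (adjusted p = 0.256). The call of AREB1-3 between root and mature leaves (log2 difference -0.57, adjusted p = 0.0395) was lost without number 63 or 70 (adjusted p = 0.21 and 0.664). Those between young and mature leaves were lost without number 63 or 70 for AREB1-3 (adjusted p = 0.47 and 0.358), AREB1-4 (adjusted p = 0.1 and 0.106) and NAC120 (adjusted p = 0.0669 and 0.0555), and so was that between apex and young leaves for AREB1-3 (adjusted p = 0.0717 and 0.0747).

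NCED3a was lower in apex (log2 difference -1.43, adjusted p = 0.0172) and root (log2 difference -1.72, adjusted p = 0.00602) than in mature leaves, with 3.44 ± 0.293 CPM in apex, 2.83 ± 1.86 in root and 7.84 ± 0.625 in young leaves, against 9.22 ± 1.32 in mature leaves. The apex call was lost without number 63 (adjusted p = 0.0777). With number as a block NCED3a was also lower in apex than in young leaves (log2 difference -1.18, adjusted p = 0.0344, against 0.0509 without the block), as it was with RLE size factors (adjusted p = 0.0481). NCED3b was called in no tissue contrast with all libraries. It had 0.521 and 0.516 CPM in apex and 2.02 and 1.98 CPM in young leaves (log2 difference -1.94, adjusted p = 0.264), and was called lower in apex without number 63 or 70 (adjusted p = 0.0439 and 0.0323). Its levels were less even in root mRNA, at 8.45 and 0.802 CPM, and in mature leaves, at 5.82 and 1.5 CPM, with control library 63 the higher one in both. Apex was called lower than mature leaves without number 70 (log2 difference -3.48, adjusted p = 0.000923), against adjusted p = 0.0877 with all libraries. In the short-term controls, apex was lower than mature leaves for 4 members, where 27.3% of 26757 genes were. These were NCED3a (log2 difference -0.82, adjusted p = 0.0141), AREB1-4 (log2 difference -1.19, adjusted p = 0.00219), NAC006 (log2 difference -1.06, adjusted p = 0.0084) and NAC007 (log2 difference -1.90, adjusted p = 0.00138). Without number 49 the calls of NCED3a, AREB1-4 and NAC006 were lost (adjusted p = 0.577, 0.432 and 0.232), and without number 19 those of NCED3a and AREB1-4 (adjusted p = 0.0735 and 0.108).

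Whether the genes of a pair moved alike was read from the log2 ratio of their sense counts, each plus 1, within a library. For NCED3a over NCED3b the ratio in the 24-hour apex was -4.16 and -4.94 under drought, against -0.02 and 4.79 in control. In mature leaves of that experiment it was 0.94 and -1.48 under drought, against 1.02 and 2.60 in control. Drought apex thus had the lowest ratios of the experiment, on the NCED3b side. Averaged over tissues for each title number, the ratio changed by -4.50 under short-term and by -0.31 under long-term drought, a mean of -2.41 (exact two-sided permutation p = 0.111, adjusted over 4 pairs 0.222, n = 8 title numbers).

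For AREB1-2 over AREB1-4 the averaged ratio was -0.99 and -0.66 under short-term drought, against -0.31 and -0.13 in control, and -1.27 and -1.29 under long-term drought, against -0.89 and -0.97 in control. Averaged this way it was lower under drought in each experiment without overlap, with a mean change of -0.48 (p = 0.0556 by an exact permutation test, adjusted 0.222). That p is the lowest that 36 relabelings can give, so this design cannot pass 0.05. By tissue, the ratio was -1.07 and -0.53 in drought apex and 0.59 and 0.69 in control apex at 24 hours, and -0.92 and -0.79 in drought and -1.21 and -0.95 in control mature leaves. The ratio of NAC006 to NAC007 changed by -0.37 on average (exact permutation p = 0.167, adjusted 0.222). That of NAC118 to NAC120 changed by -0.68 under short-term and by 0.98 under long-term drought (mean 0.15, exact permutation p = 0.722, adjusted 0.722). In root mRNA it was 3.57 and 5.25 under drought, against 2.62 and 2.95 in control.

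**Figure D3:**
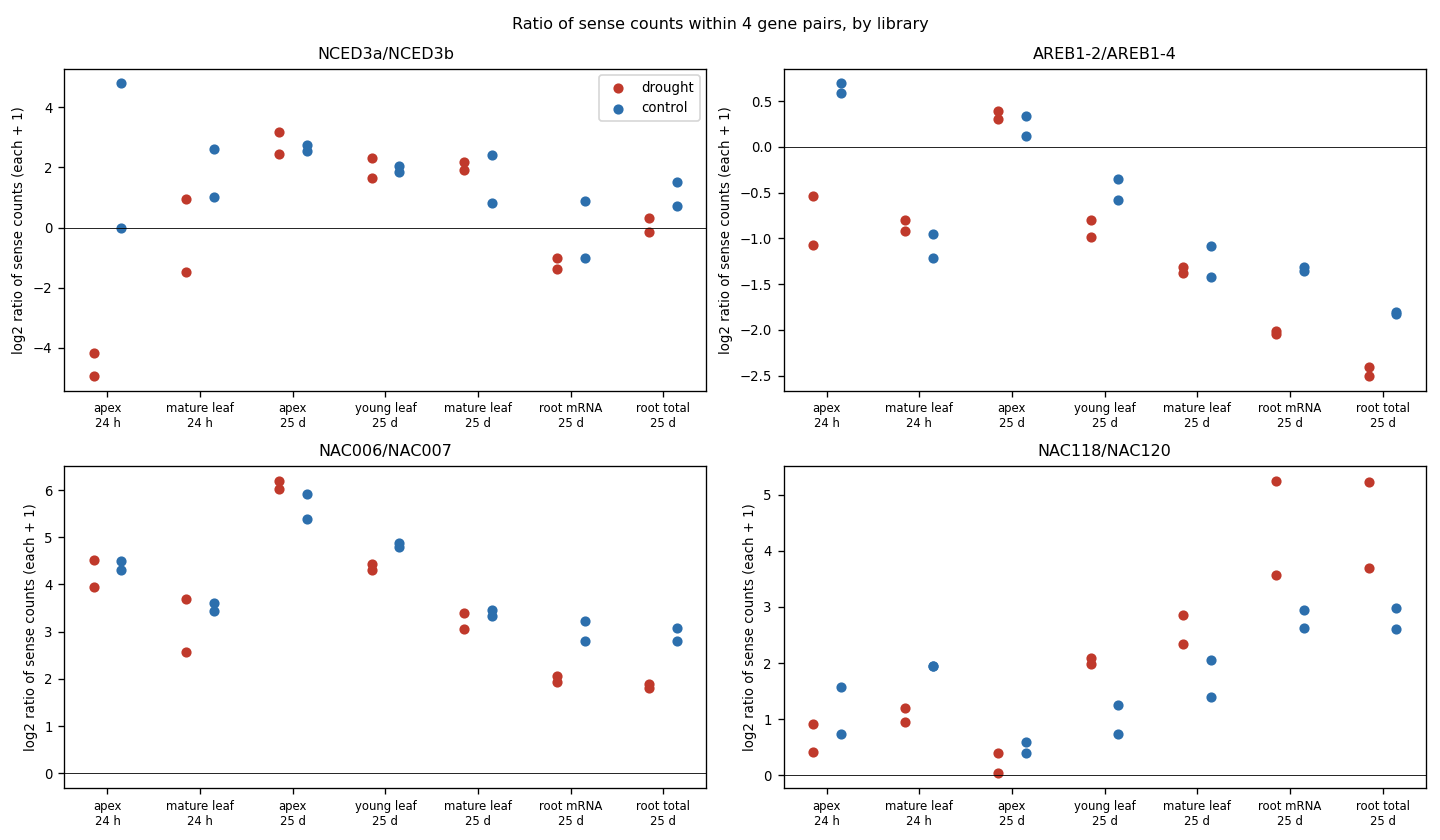
Log2 ratio of sense counts (each plus 1) of the first over the second gene of 4 pairs, with 1 point per library, drought in red left of control in blue. The NCED3a to NCED3b ratio is -4.16 and -4.94 in 24-hour drought apex, and the NAC118 to NAC120 ratio is highest in drought root library 68.

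Intron reads, which come largely from unspliced RNA, changed in the same direction as the sense counts in every member and comparison where they were called. AREB1-3 held 6860 intron sense reads over the 28 libraries, and the other 6 members with an intron entry held 102 to 1686. In the 24-hour apex all 6 members tested were called upward, where 58.5% of 18034 entries were and the median entry moved by 0.86 relative to the sense reads. AREB1-3 had 922 and 1262 intron counts in drought apex, against 218 and 78 in control apex (log2 fold change 3.26, SE 0.25, adjusted p = 5.46e-31). NAC118 had 61 and 159 intron counts in drought apex, against 8 and 1 in control apex (log2 fold change 4.89, SE 0.45, adjusted p = 1.28e-19). The drought libraries were above the controls in both genes. With intron totals used for scaling, which takes out the common shift, all 6 were still called upward, as were 21.5% of entries, with log2 fold changes of 2.25 to 4.02. NAC006 had 6 and 21 intron counts in drought and 3 and 0 in control apex and was below the filter. AREB1-4, NAC118 and NAC120 had under 10 intron counts in each control library and passed the filter through the drought libraries. NAC007, with 32 and 5 in control apex, also needed a drought library to pass. The upward direction of these genes was therefore largely set by the filter.

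In mature leaves after 24 hours 3 of 4 tested members were called upward, where 4.37% of 15178 entries were. AREB1-3 had 370 and 490 intron counts in drought leaves, against 115 and 79 in control leaves (log2 fold change 1.91, SE 0.29, adjusted p = 7.90e-06), and drought was clear of control. NAC007 had 120 and 105 intron counts in drought leaves, against 28 and 49 in control leaves (log2 fold change 1.33, SE 0.33, adjusted p = 0.00338), lost without drought library 35 or 69 (adjusted p = 0.0565 and 0.0859). NAC118 had 25 and 76 intron counts in drought leaves, against 4 and 0 in control leaves (log2 fold change 4.38, SE 0.89, adjusted p = 0.00593), which was lost by DESeq2 (adjusted p = 0.203), under a dispersion shared with other groups (adjusted p = 0.0943) and when control library 19 or 49 was dropped (adjusted p = 0.255 and 0.267). AREB1-4 had 19 and 24 intron counts in drought leaves, against 10 and 5 in control leaves, without overlap, and was not called (log2 fold change 1.27, SE 0.55, adjusted p = 0.132). NAC118 passed the count filter through its drought libraries, so its upward direction was largely set by the filter.

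In mature leaves after 25 days AREB1-3 intron reads fell, with 36 and 36 intron counts in drought leaves, against 113 and 95 in control leaves (log2 fold change -1.65, SE 0.29, adjusted p = 0.0293). It was 1 of 2 members tested, where 0.53% of 6221 entries were called downward, and the call was lost without drought library 68 (adjusted p = 0.109). In root mRNA NAC007 had 79 and 84 intron counts in drought root, against 11 and 4 in control root (log2 fold change 3.53, SE 0.41, adjusted p = 0.000152), 1 of 2 members tested called where 10.1% of 12823 entries were called upward. In root total RNA NAC007 had 379 and 320 intron counts in drought root, against 82 and 52 in control root (log2 fold change 2.43, SE 0.20, adjusted p = 9.58e-06), and NAC118 had 74 and 80 intron counts in drought root, against 4 and 4 in control root (log2 fold change 4.28, SE 0.41, adjusted p = 3.28e-05). Those were 2 of 6 members tested, where 9.92% of 17422 entries were called upward. Here too NAC118 passed the count filter through its drought libraries, so its upward direction was largely set by the filter. In root mRNA NAC007 also needed a drought library to pass. AREB1-3 intron reads in root total RNA were 429 and 199 under drought and 479 and 274 in control, with overlap (log2 fold change -0.25, SE 0.37, adjusted p = 0.718). In 25-day apex and young leaves AREB1-3 was the 1 member tested and was not called (log2 fold change -0.12, SE 0.35, adjusted p = 0.991 in apex, log2 fold change -1.03, SE 0.31, adjusted p = 0.151 in young leaves), where 0.107% and 1.12% of entries were. The median entry moved by -0.14 in 24-hour mature leaves, 0.12 in 25-day mature leaves and 0.22 in root mRNA, shifts that the values above include.

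**Figure D4:**
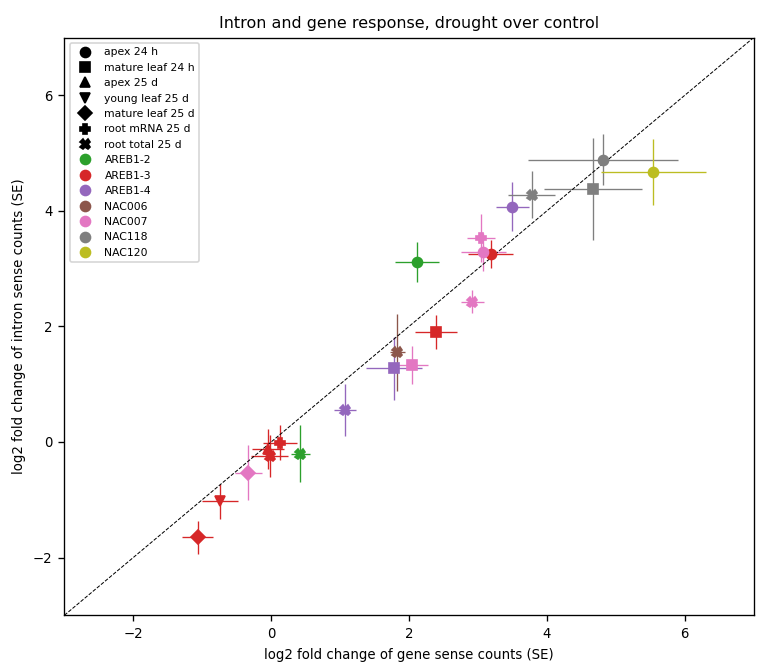
Log2 fold change of intron sense counts against that of gene sense counts, drought over control, for each member and comparison with an intron test (colour gives the gene, shape the comparison, bars are SE, dashed line is equality). Intron changes run from -1.65 for AREB1-3 in 25-day mature leaves (gene -1.06) to 4.89 for NAC118 in 24-hour apex (gene 4.81). Some points lie off the line to either side. In 24-hour apex AREB1-2 has gene 2.12 and intron 3.11, and NAC120 has gene 5.55 and intron 4.67. Intron changes are relative to the sense reads of the library, so shifts common to all introns are included.

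Antisense reads over the 9 genes were few. They numbered 471 in all 28 libraries, 0.659 per 1000 sense reads, beside a median of 0.552 per 1000 over the 24367 genes with at least 1000 sense reads and 33.8 per 1000 for all genes pooled. NAC006 held 213 of them and NAC118 82. NCED3a and NAC120 held 5 each, at most 1 and 2 in a library. No member had enough antisense counts for the test in 6 of the 7 comparisons. In the 24-hour apex, 1 of these 6, AREB1-3 had 14 and 5 antisense counts in drought libraries and 1 and 0 in control libraries. It was called upward by edgeR when low counts were kept (log2 fold change 4.28, adjusted p = 0.0198), but not by DESeq2 (adjusted p = 0.106). Without drought library 69 its log2 fold change was 4.87. NAC006 had 16 and 5 in drought and 6 and 3 in control apex, and its log2 fold change without drought library 69 was 2.20. In that run both genes passed the count filter through drought library 35, so their upward direction was largely set by the filter.

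In root total RNA 2 members were tested, and NAC118 rose, where 9.97% of 4000 genes were called upward. NAC118 had 15 and 38 antisense counts in drought root, against 2 and 7 in control root (log2 fold change 2.62, SE 0.76, adjusted p = 0.0411), beside a median of 0.13 over all genes tested. NAC118 passed the count filter through its drought libraries, so its upward direction was largely set by the filter. Per 1000 sense reads this was 1.48 in drought and 3.26 in control root, and the sense counts of NAC118 rose as well. The call was lost without control library 63 (adjusted p = 0.081) or drought library 68 (adjusted p = 0.369). NAC006 had 23 and 20 antisense counts in drought root and 28 and 22 in control root, and was not called (log2 fold change -0.17, SE 0.40, adjusted p = 0.816).  Antisense reads over the introns of the 7 members with entries came to 14 in all, 8 of them over NAC006.

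Across the 28 libraries, which share title numbers and differ in tissue, duration and library type, the profiles of some members ran close. The measure was Pearson's r of log2(CPM + 1), given as a description. NAC006 and NAC120 (r = 0.91), NAC007 and NAC118 (r = 0.89) and AREB1-3 and AREB1-4 (r = 0.83) were close. Spearman's rho for these pairs was 0.85, 0.86 and 0.83, so the order of the NAC pairs depends on the measure. NCED3b had its highest r with NAC120 (r = 0.77, rho = 0.37) but its highest rho with AREB1-3 (rho = 0.58), and with NCED3a it had r = 0.47 and rho = 0.56. NCED3a had its highest r among members with NCED3b and -0.20 with AREB1-4. Outside the set, among genes with a mean of at least 5 CPM, the closest to NCED3a was Potri.005G237100 (r = 0.88), the closest to AREB1-3 was Potri.012G002700 (r = 0.93), and the closest to NAC006 was Potri.002G105900 (r = 0.91). These loci are given by identifier alone, since the files pair no names with them. By Spearman's rho a different gene was closest to each of NCED3a, AREB1-3 and NAC006, so the closest gene depends on the measure.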

How the data were processed

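The authors deposited whole-number read counts that were not normalised, in 4 files a library: both strands over genes (41335) and over intron entries (33325, of which 109 join several genes, none a member). TopHat2 2.1.0, HTSeq 0.6.0 and DESeq2 are listed, without roles, per the submitters' processing notes. The build, annotation and counting options are not given in the sources used here. Closing lines that name no gene, present in 44 of 56 gene files, were left out. Reads outside genes were 2.43% to 12.4% of the alignments in 20 sense files. File names of root libraries hold the word merged, with no explanation.

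Drought was tested against control in the 4 libraries of each comparison with edgeR 4.0.16 (R 4.3.3): default expression filter (10 counts at the median library size, 15 in total), TMM factors, robust quasi-likelihood fit. Antisense and intron counts used the effective sense library sizes, so their changes are relative to sense reads. Interactions used the 8 libraries of both comparisons, and tissue contrasts the controls of 1 experiment. SE is the fold change over the root of F. Displayed CPM use TMM factors over all 28 libraries. Fits were tested on simulated counts. Alternatives were RLE factors, DESeq2 1.42.0, no filter, a dispersion shared with other groups, own antisense or intron totals, a replicate block, and leaving out libraries, where a lone library in an arm is assumed to vary like the other arm. Replicates of a group always differed by more than counting noise. Members, names and lists were chosen with earlier results of these data known. All 9 members are named, with the gene closest in profile by Pearson's r to NCED3a, AREB1-3 and NAC006. A wider list by product name had no members, because 0 of 41335 IDs matched the 34621 genes of the RefSeq table (assembly P.trichocarpa_v4.1). Libraries of the same title number were taken as paired where their deviations from the group mean correlated over 0.1 in both drought and control. This held for apex with young leaves (0.253 in drought, 0.338 in control), for young with mature leaves (0.482 in drought, 0.538 in control) and for root mRNA with root total RNA (0.897 in drought, 0.881 in control). Drought and control share no numbers. The main fits used no block, and the pairing entered only through the replicate block among the alternatives.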

Additional observations from a re-analysis of the deposited data

Results flagged for a closer look

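Drought responses that differed between tissues were called for 7 member results, by a drought by tissue term in edgeR's quasi-likelihood test. Each of the 7 calls was lost when some single title number was left out. Groups of 2 libraries are too small for a search for single outlying libraries. At 24 hours the response of AREB1-4 was higher in apex than in mature leaves by 1.70 (SE 0.53, adjusted p = 0.0498) on the log2 scale, and that of NAC006 by 1.29 (SE 0.41, adjusted p = 0.0471). Both drought libraries exceeded both controls in both tissues for these genes. The term was called in 2 of 9 members and in 28.3% of 27796 genes, so a call by itself was common there. Both calls were lost without number 19 or 49, with differences of 2.16 and 1.26 for AREB1-4 and 1.66 and 1.01 for NAC006.

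At 25 days the NCED3a response in apex minus that in mature leaves was 2.16 (SE 0.45, adjusted p = 0.0354), with 2.83 and 1.73 CPM in drought and 3.23 and 3.65 CPM in control apex, beside 0.966 and 1.65 CPM in drought and 10.2 and 8.28 CPM in control mature leaves. The response in root minus that in mature leaves was 2.58 (SE 0.21, adjusted p = 0.00372) for NAC006, 3.40 (SE 0.30, adjusted p = 0.00474) for NAC007, 4.24 (SE 0.43, adjusted p = 0.00588) for NAC118 and 3.46 (SE 0.40, adjusted p = 0.00696) for NAC120. In all 4 NAC genes both drought root libraries were above both control root libraries. In mature leaves NAC006, NAC007 and NAC120 had both drought libraries below both controls, and NAC118 overlapped. The term was called in 3.61% of 26319 genes for apex and in 7.44% of 28591 genes for root, each against mature leaves. The NCED3a call was lost without number 63, 70 or 64 (differences 1.89, 2.40 and 1.47). Without number 68 the calls of the 4 NAC genes were lost. The differences were then 2.56 for NAC006, 3.28 for NAC007, 3.83 for NAC118 and 3.64 for NAC120.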

How the results depend on the processing

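With another normalisation, DESeq2, no filter or a shared dispersion, 234 of 252 drought sense values of members kept their direction and their side of the threshold. Called members changed by over 1.5 times as follows. DESeq2 called 1 member in 25-day apex, 1 in young leaves and 4 in mature leaves (0, 2 and 2 by edgeR). A shared dispersion gave 1 in young leaves. Without a filter there was 1 antisense call in 24-hour apex (0 before), 2 intron calls in root mRNA (1 before) and 1 apex minus mature leaf interaction at 24 hours (2 before). Leaving out 1 library at a time, sense calls ranged from 5 to 8 in 24-hour apex, 0 to 8 in 24-hour mature leaves, 0 to 2 in 25-day apex, 1 to 2 in young leaves, 1 to 3 in mature leaves and 3 to 5 in root mRNA. Antisense calls ranged from 0 to 2 in 24-hour apex and 0 to 1 in root total RNA, and intron calls from 1 to 2 in root mRNA and 0 to 1 in 25-day mature leaves. Leaving out 1 title number, interaction calls ranged from 0 to 2 at 24 hours, 0 to 1 for 25-day apex and 0 to 4 for root, each against mature leaves. Tissue calls ranged from 2 to 3 for young minus mature leaves, 1 to 3 for apex minus young leaves and 1 to 2 for short-term apex minus mature leaves. These last fits took their spread from the drought libraries too, so the lone control library was assumed to vary like the other groups. Calls over all genes changed in these runs as well, so the ranges of member calls are not particular to the members. The cause of these changes was not tested.

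Values that changed sign were not called with all libraries. Without 1 library, log2 fold changes ranged from -0.01 to 3.05 for NCED3b in 24-hour mature leaves. In 25-day apex the ranges were -0.01 to 0.11 for AREB1-2, -0.40 to 0.24 for AREB1-3 and -0.18 to 0.04 for AREB1-4. In young leaves they were -0.41 to 0.05 for NAC006 and -0.25 to 0.27 for AREB1-4, and in mature leaves -0.49 to 0.03 for AREB1-4 and -0.51 to 0.05 for NAC118. In root they were -1.94 to 1.42 for NCED3b and -0.09 to 0.39 for AREB1-3 as mRNA, and -1.41 to 1.19 and -0.32 to 0.26 as total RNA. AREB1-3 in root total RNA was 0.00 with RLE factors, 0.01 by DESeq2 and 0.03 with a shared dispersion. Its intron values without 1 library ranged from -0.66 to 0.28 in 25-day apex, -0.67 to 0.16 in root total RNA and -0.32 to 0.38 in root mRNA, where they were 0.02 with RLE factors, 0.02 by DESeq2 and 0.04 with a shared dispersion. The NAC118 to NAC120 ratio changed by -0.68 in the short-term numbers alone, and by -0.02 to 0.32 without 1 number, an alternative chosen after seeing the data.

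With the title number as a replicate block, 4 members were called for apex minus mature leaves at 24 hours (2 without the block), where 31.6% of genes were. For apex minus mature leaves at 25 days 0 were called (1 without), where 3.33% of genes were. For young minus mature leaves 1 was called (0 without), where 7.53% of genes were. The block changed no other count of members by over 1.5 times. Deviations of same-numbered libraries correlated at 0.315 in drought and 0.04 in control for 24-hour apex and mature leaves, at 0.008 and 0.177 for 25-day apex and mature leaves, and at 0.056 and 0.246 for root mRNA and mature leaves, so there the libraries share only a number. Low counts limit the antisense results of all members and the intron results of NAC006, whose highest intron count was 21. Introns of AREB1-2, AREB1-4, NAC118 and NAC120 had at most 3 counts in any 25-day shoot library. NCED3b had 3 and 10 sense counts in 25-day drought mature leaves and 7 and 6 in 25-day drought apex. In both tissues it passed the count filter through its control libraries, so its downward direction there was largely set by the filter.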
